A study of Mus musculus with 6 samples.

Results

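The complement and coagulation factors are plasma proteins made mainly by hepatocytes, and 37 of their genes were followed here: 22 of coagulation and fibrinolysis and 15 of complement. They were chosen by name. Each was read from a probe set that the platform annotation ties to that gene alone, taking the brightest where a gene had several. By this rule 32 were measured, 20 of coagulation and 12 of complement, among 22180 genes on the array. Of these, 31 lay in the upper 50% of mean signal and were tested, 19 of coagulation and 12 of complement, among 11090 genes. Tfpi was measured but lay below the filter. Klkb1, Masp2, Cpb2, C3 and Cfd had no probe set of their own under the rule and were not analysed here.

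The livers came from 3 Gpr146 KO mice and 3 WT littermates, all male, on the C57BL/6J background and 24 weeks old. The knockout was of the whole body and not limited to the liver, and which part of the gene was deleted is not stated in the labels. Chow-fed mice of both genotypes went without food for 16 hours and then ate for 6 hours, so all values describe the refed state. Each mouse gave 1 Affymetrix whole-transcript array of total liver RNA, and values are deposited log2 signals. In such bulk RNA, fewer cells of a type and less RNA per cell cannot be told apart.

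Clotting runs as a cascade in which 1 protease cuts and activates the next, until thrombin turns fibrinogen into fibrin. Vitamin K dependent factors carry carboxylated glutamates that bind calcium and membranes, and plasmin later dissolves the clot. Complement is a second protease cascade of plasma: the lectin and alternative routes lead to convertases, and the terminal components C5b to C9 assemble into a membrane pore. Several of these genes are also raised in hepatocytes by IL-6 during the acute phase.

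Array medians lay between 2.67 and 2.73, and Pearson's r between pairs of arrays was 0.983 to 0.988 across probe sets. Gpr146 itself was at 4.61, 4.28 and 3.87 in KO mice 1 to 3, against 5.96, 5.56 and 5.65 in WT mice 1 to 3, so all KO mice lay below all WT mice (KO minus WT difference -1.47 ± 0.19 (SE) on the log2 scale, limma adjusted p = 0.0702, not past the threshold). Alb, the hepatocyte marker, was at 11.91 ± 0.01 in KO and 11.92 ± 0.02 in WT mice (SD, n = 3 each), and 8 of 8 hepatocyte markers passed the signal filter. Over all genes tested, 4 passed an adjusted p of 0.05 in limma, which is 0.0361% of 11090 (0.0271% higher and 0.00902% lower in KO). They were C130050O18Rik, D930048N14Rik, Map2k6 and Rhbg, named after their values were seen, and none is a complement or coagulation factor. KO mouse 3 was the highest of the 6 mice in 25.6% of genes and WT mouse 1 the lowest in 27.6%, more often than any other mouse in each case.

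No coagulation or complement factor passed the threshold in the comparison of KO with WT livers. The comparison asks which liver RNAs differ without the receptor. Adjusted p-values in limma ran from 0.416 to 0.978 over the 19 coagulation genes and from 0.401 to 0.988 over the 12 complement genes. At an unadjusted p under 0.05 there was 1 coagulation gene, F11, and 1 complement gene, C8a, both higher in KO, where 9.13% of all genes had such a p, 6.16% higher and 2.98% lower. These counts lie near that background. Values of KO and WT mice did not overlap for 2 coagulation genes, F11 and Vtn, and for 2 complement genes, C8a and Cfb. All 4 were higher in KO. Of all genes 14.8% did not overlap, 9.63% higher and 5.16% lower, so the 4 of 31 again lie near the background.

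Differences were small for most coagulation genes, and scatter between mice was wider for complement. Among coagulation genes 12 differences were positive and 7 negative, with a median of 0.06 on the log2 scale, against 0.03 over all genes tested, where 57.7% of differences were positive and 42.3% negative. For complement 11 were positive and 1 negative, with a median of 0.13, and quantile or median scaling of the arrays turned C8g negative too. Without KO mouse 3 the medians were 0.01 for coagulation and 0.04 for complement. The distance between the lowest and highest of the 6 mice had a median of 0.22 over the coagulation genes and 0.57 over the complement genes, against 0.39 over all genes tested. C6, C8a, C8b and C9, a grouping made after the values were seen, were the 4 complement genes with a range over 1. The other 8 complement genes had a median range of 0.31, below the 0.39 over all genes tested.

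**Figure D1:**
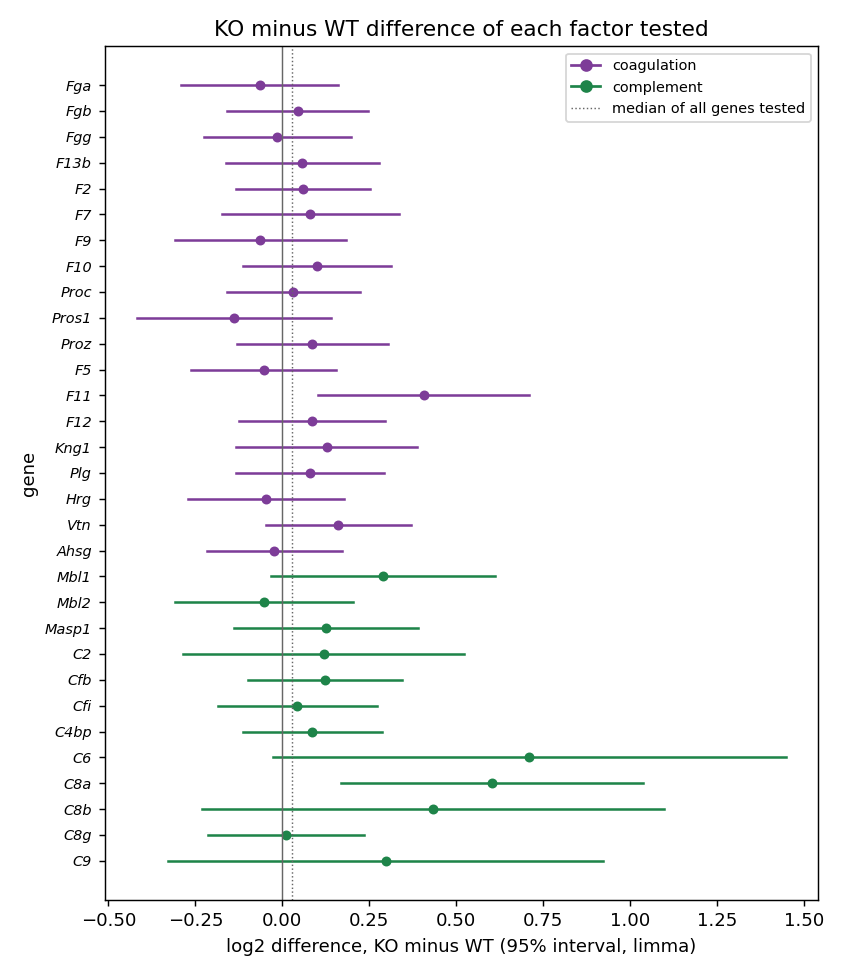
Points give the difference of mean log2 signal, KO minus WT, for the 31 genes tested, and lines give limma's unadjusted 95% interval. Coagulation genes lie mostly near 0 with short intervals, F11 and C8a have intervals above 0, and C6, C8b and C9 have the longest intervals.

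Since C6, C8a, C8b and C9 shared their lowest and highest mouse and F11 had the lowest p of the coagulation genes, the 250 bases before their RefSeq starts (GRCm38.p6) are shown, gene strand, 5′ to 3′. Capitals mark matches on either strand to 4 motifs: the HNF1 motif GTTAAT, the C/EBP motif TTGCNNAA, the STAT motif TTCNNNGAA and the HNF4 motif CAAAGTCCA. The windows are chr15:4726960-4727209 (plus strand) for C6, chr4:104876399-104876648 (minus) for C8a, chr4:104766067-104766316 (plus) for C8b, chr15:6445096-6445345 (plus) for C9 and chr8:45262032-45262281 (minus) for F11.
C6: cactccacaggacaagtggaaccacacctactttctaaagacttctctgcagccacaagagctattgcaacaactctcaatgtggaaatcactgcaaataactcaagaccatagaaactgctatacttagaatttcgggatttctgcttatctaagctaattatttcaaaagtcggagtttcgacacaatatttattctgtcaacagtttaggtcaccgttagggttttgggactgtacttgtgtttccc
C8a: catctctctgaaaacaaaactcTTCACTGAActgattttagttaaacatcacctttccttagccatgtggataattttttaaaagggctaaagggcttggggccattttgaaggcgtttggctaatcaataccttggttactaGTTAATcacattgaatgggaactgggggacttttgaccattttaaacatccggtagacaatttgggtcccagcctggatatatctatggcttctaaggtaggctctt
C8b: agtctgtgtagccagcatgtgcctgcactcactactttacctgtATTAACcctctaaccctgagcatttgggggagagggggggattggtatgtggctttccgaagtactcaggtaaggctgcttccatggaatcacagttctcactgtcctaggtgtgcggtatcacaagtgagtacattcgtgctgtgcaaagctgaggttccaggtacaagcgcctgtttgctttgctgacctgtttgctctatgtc
C9: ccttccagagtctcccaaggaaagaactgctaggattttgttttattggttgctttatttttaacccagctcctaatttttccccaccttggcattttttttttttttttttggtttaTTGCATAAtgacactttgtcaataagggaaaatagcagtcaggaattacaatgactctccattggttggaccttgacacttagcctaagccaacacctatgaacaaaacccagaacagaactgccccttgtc
F11: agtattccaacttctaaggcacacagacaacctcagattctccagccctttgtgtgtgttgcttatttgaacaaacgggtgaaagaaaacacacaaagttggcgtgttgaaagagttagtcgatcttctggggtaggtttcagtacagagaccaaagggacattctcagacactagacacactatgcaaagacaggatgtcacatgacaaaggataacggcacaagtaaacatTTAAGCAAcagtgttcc
C8a held an HNF1 match 107 bases and a STAT match 228 bases before the start, C8b an HNF1 match at 206 bases, C9 a C/EBP match at 132 bases and F11 one at 17 bases. Neither C6 nor the 2 windows of C8g held any of the 4. None of the 4 motifs was thus found in all of C6, C8a, C8b and C9.

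RefSeq promoters were found for 30 of the 37 genes, 19 of coagulation and 11 of complement. The HNF1 motif was in 8 of the 30 (5 coagulation, 3 complement) against 7.49% of 27025 genes with a promoter in the table. C/EBP matches were in 9 of the 30 (7 and 2), against 10.8% of all, and STAT matches in 6 of the 30 (4 and 2), against 8.13%. The HNF4 motif was in 0 of the 30 and in 0.451% of all. Fga and Fgb each held the first 3 motifs, and Fga and Fgb signals overlapped between genotypes. Such matches are letters in a window and do not show binding.

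Fibrinogen, the soluble precursor of the clot, is built from 3 chains, and none of the chain genes differed between genotypes by more than 0.07. Fga, the alpha chain, was at 10.40, 10.26 and 10.49 in KO mice 1 to 3, against 10.44, 10.52 and 10.37 in WT mice 1 to 3. Fgb, the beta chain, was at 11.04, 10.995 and 11.12 in KO mice 1 to 3, against 10.96, 11.05 and 11.01 in WT mice 1 to 3, and Fgg, the gamma chain, at 10.80, 10.84 and 10.92 in KO mice 1 to 3, against 10.84, 10.96 and 10.81 in WT mice 1 to 3. In all 3 the groups overlapped. Differences were -0.06 ± 0.10, 0.04 ± 0.09 and -0.01 ± 0.09, with 95% intervals of -0.29 to 0.16, -0.16 to 0.25 and -0.23 to 0.20. The widest of these bounds the KO over WT ratio of Fga between 0.818 and 1.12. Fga lies next to Fgb and Fgg in the reference annotation, with no other protein-coding gene between. F13b, the carrier subunit of the transglutaminase that cross-links fibrin, was at 8.10, 8.08 and 8.24 in KO mice 1 to 3, against 8.06, 8.01 and 8.18 in WT mice 1 to 3, overlapping, with a difference of 0.06 ± 0.10.

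The 7 vitamin K dependent factors had differences between -0.14 and 0.10, 5 positive and 2 negative. F2, which encodes prothrombin, was at 10.58, 10.63 and 10.62 in KO mice 1 to 3, against 10.52, 10.58 and 10.55 in WT mice 1 to 3, with all but 1 KO value above the highest WT value. The tissue factor partner F7 was at 7.72, 7.78 and 7.97 in KO mice 1 to 3, against 7.80, 7.59 and 7.84 in WT mice 1 to 3, and there KO mouse 3 was highest and WT mouse 2 lowest. F10, whose product forms the prothrombinase protease, was at 9.12, 9.08 and 9.07 in KO mice 1 to 3, against 8.97, 8.90 and 9.10 in WT mice 1 to 3. F7, F10 and Proz follow each other in the annotation with no other protein-coding gene between F7 and F10 or between F10 and Proz, and their differences were 0.08 ± 0.11, 0.10 ± 0.09 and 0.09 ± 0.10. Proz encodes protein Z, a cofactor for the inhibition of factor Xa, and was at 9.10, 9.19 and 9.16 in KO mice 1 to 3, against 9.002, 9.01 and 9.19 in WT mice 1 to 3. F9, the X-linked gene of factor IX, was at 8.42, 8.44 and 8.67 in KO mice 1 to 3, against 8.49, 8.54 and 8.68 in WT mice 1 to 3, with KO mice 1 and 2 below every WT mouse and KO mouse 3 close to WT mouse 3.

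Proc and Pros1 are the anticoagulants of the same group. Proc, which encodes protein C, the protease that inactivates factors Va and VIIIa, was at 9.28, 9.31 and 9.31 in KO mice 1 to 3, against 9.27, 9.24 and 9.29 in WT mice 1 to 3. Its range of 0.07 over 6 mice was the smallest among the 31 genes tested. Pros1, the cofactor of protein C, had the lowest difference of the coagulation genes, -0.14 ± 0.12, with a 95% interval of -0.42 to 0.14. It was at 5.81, 6.20 and 6.14 in KO mice 1 to 3, against 6.09, 6.20 and 6.26 in WT mice 1 to 3, so KO mouse 1 stood below the other 5. Without KO mouse 1 the Pros1 difference was -0.02, and that of Fga, -0.07, was then the lowest. F5, the cofactor of factor Xa and itself a target of protein C, was at 9.55, 9.57 and 9.72 in KO mice 1 to 3, against 9.69, 9.66 and 9.66 in WT mice 1 to 3 and differed by -0.05 ± 0.09. Tfpi, an inhibitor of the tissue factor pathway made largely by endothelium, was at 2.70, 2.81 and 2.92 in KO mice 1 to 3, against 2.65, 2.64 and 2.38 in WT mice 1 to 3, below the filter, and is given without a test.

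Of the 3 contact and intrinsic factors tested, F11 had the largest difference. It encodes factor XI, which activates factor IX, and was at 7.51, 7.56 and 7.49 in KO mice 1 to 3, against 7.33, 6.82 and 7.18 in WT mice 1 to 3. Every KO mouse lay above every WT mouse, with KO values within 0.08 of each other and WT mouse 2 lowest. The difference was 0.41 ± 0.13, a ratio of 1.33 with a 95% interval of 1.07 to 1.64. Its limma adjusted p was 0.416 and its exact permutation p 0.1, the smallest that 3 against 3 mice can give. Without WT mouse 2 the difference was 0.26 (limma adjusted p = 0.513; range over all alternatives 0.356 to 0.731). F12, the starting protease of contact activation, was at 9.45, 9.60 and 9.57 in KO mice 1 to 3, against 9.39, 9.52 and 9.45 in WT mice 1 to 3 and differed by 0.08 ± 0.09. Kng1, the kininogen from which bradykinin is cut, was at 8.13, 7.92 and 8.29 in KO mice 1 to 3, against 7.98, 8.05 and 7.92 in WT mice 1 to 3, with KO mouse 2 lowest and KO mouse 3 highest.

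Genes of clot lysis and of adhesive plasma proteins were also close between genotypes. Plg, the plasmin precursor, was at 10.81, 10.90 and 11.01 in KO mice 1 to 3, against 10.81, 10.80 and 10.86 in WT mice 1 to 3, a difference of 0.08 ± 0.09. Hrg, a histidine-rich plasma glycoprotein that binds plasminogen and heparin, was at 10.47, 10.42 and 10.67 in KO mice 1 to 3, against 10.56, 10.59 and 10.56 in WT mice 1 to 3, with KO mice 1 and 2 below and KO mouse 3 above every WT mouse. Vtn encodes vitronectin, an adhesive protein that also stabilises the plasminogen activator inhibitor PAI-1 and blocks the terminal complement complex. It was at 10.86, 10.89 and 11.04 in KO mice 1 to 3, against 10.77, 10.75 and 10.78 in WT mice 1 to 3, so the groups did not overlap, and KO mouse 3 was highest. The difference was 0.16 ± 0.09 (limma adjusted p = 0.631, exact permutation p = 0.1), and 0.11 without KO mouse 3. Ahsg, encoding fetuin-A, was at 11.85, 11.86 and 11.83 in KO mice 1 to 3, against 11.83, 11.87 and 11.91 in WT mice 1 to 3 and differed by -0.02 ± 0.08. Ahsg, Hrg and Kng1 lie close together in the annotation, with 1 protein-coding gene between Ahsg and Hrg and 1 between Hrg and Kng1, and their differences were -0.02, -0.05 and 0.13.

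**Figure D2:**
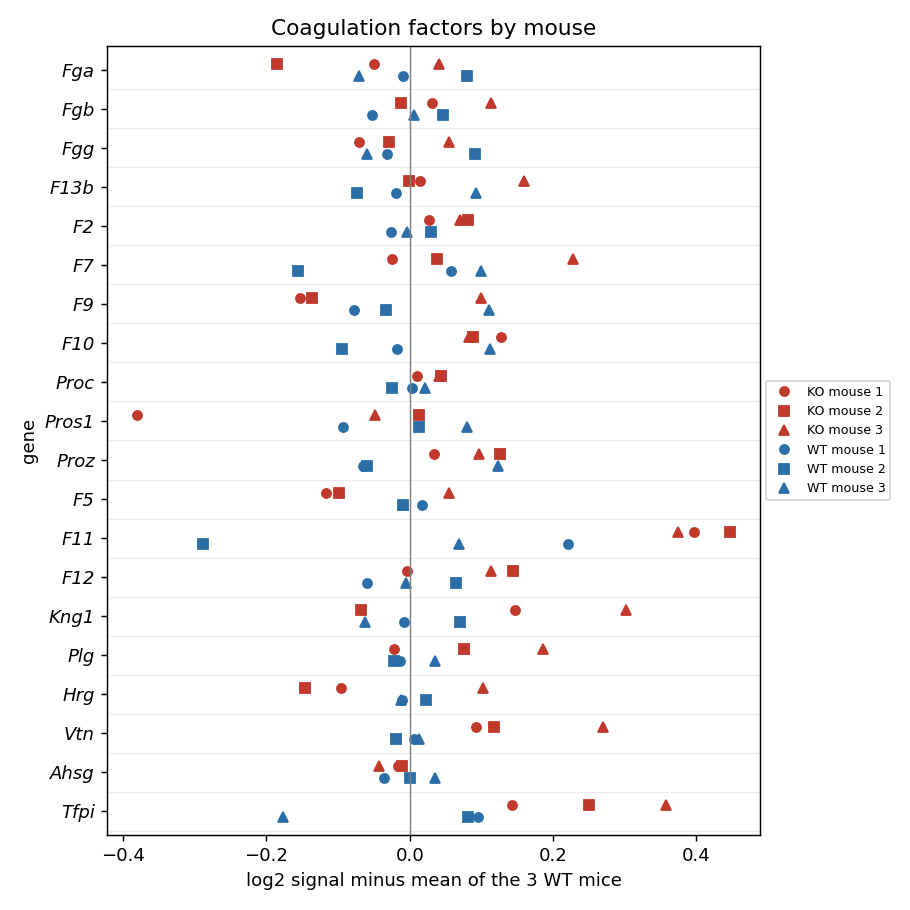
Each point is 1 mouse (red KO, blue WT; circle mouse 1, square mouse 2, triangle mouse 3), as log2 signal minus the mean of the 3 WT mice, for the 20 coagulation genes measured. F11 and Vtn are the tested genes whose KO and WT points do not overlap; Tfpi is below the signal filter and was not tested.

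In the lectin route of complement, mannose-binding lectins recognise microbial sugars and MASP proteases start cleavage. Mbl1 was at 8.23, 8.24 and 8.61 in KO mice 1 to 3, against 8.04, 7.89 and 8.27 in WT mice 1 to 3, with WT mouse 2 lowest and KO mouse 3 highest. It differed by 0.29 ± 0.14 with a 95% interval of -0.03 to 0.61 (limma adjusted p = 0.592), and by 0.16 without KO mouse 3. Mbl2, the second lectin, was at 8.92, 9.04 and 8.77 in KO mice 1 to 3, against 8.82, 8.98 and 9.10 in WT mice 1 to 3, with KO mouse 3 lowest, and had the only negative difference of the complement genes, -0.05 ± 0.11. Masp1 was at 8.26, 8.19 and 8.55 in KO mice 1 to 3, against 8.24, 8.12 and 8.25 in WT mice 1 to 3 and differed by 0.13 ± 0.12, or 0.02 without KO mouse 3.

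C2 and Cfb, neighbouring genes with no other protein-coding gene between them, encode the catalytic subunits of the classical and lectin convertase and of the alternative convertase. C2 was at 6.35, 6.25 and 6.92 in KO mice 1 to 3, against 6.20, 6.46 and 6.51 in WT mice 1 to 3, with KO mouse 3 above the rest. Its difference was 0.12 ± 0.18, and -0.09 without KO mouse 3. Cfb was at 9.79, 9.79 and 10.004 in KO mice 1 to 3, against 9.73, 9.71 and 9.77 in WT mice 1 to 3, which left no overlap between the groups. The difference of Cfb was 0.12 ± 0.10 (limma adjusted p = 0.729, exact permutation p = 0.1) and 0.05 without KO mouse 3.

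Of the regulators, Cfi, the protease that degrades C3b and C4b, was at 9.63, 9.57 and 9.84 in KO mice 1 to 3, against 9.64, 9.64 and 9.64 in WT mice 1 to 3. The 3 WT values differed by less than 0.01, and KO mice lay on both sides of them. C4bp, its cofactor for C4b, was at 9.64, 9.62 and 9.72 in KO mice 1 to 3, against 9.56, 9.54 and 9.63 in WT mice 1 to 3 and differed by 0.09 ± 0.09. Neither gene differed by more than 0.09.

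**Figure D3:**
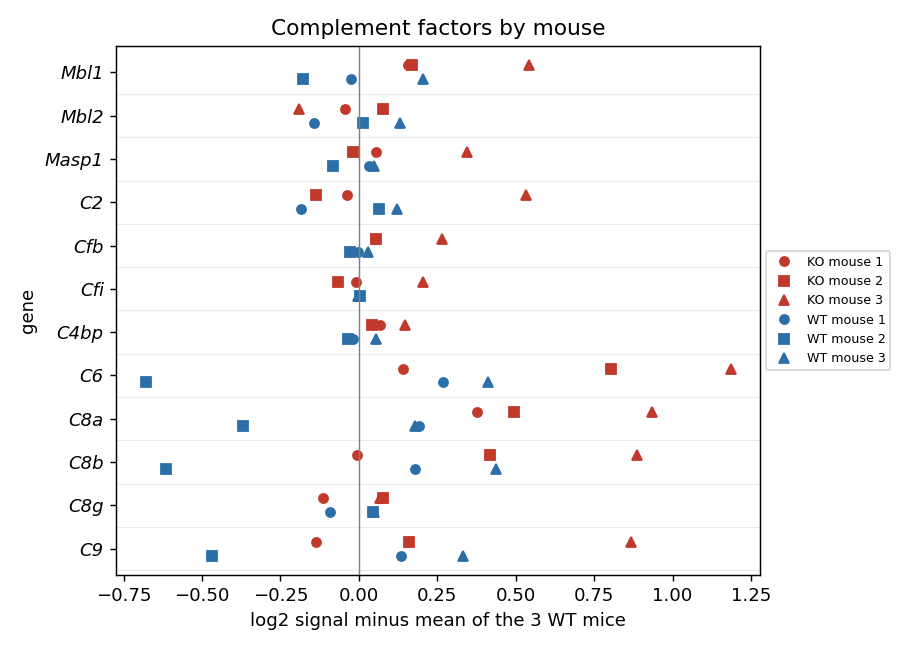
Each point is 1 mouse (red KO, blue WT; circle mouse 1, square mouse 2, triangle mouse 3), as log2 signal minus the mean of the 3 WT mice, for the 12 complement genes tested. C6, C8a, C8b and C9 spread over more than 1 log2 unit with WT mouse 2 lowest and KO mouse 3 highest, and C8g spreads over 0.19.

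C6, C8a and C8b, genes of the pore, had the 3 largest differences of the 31 factors tested with all 6 mice, and C8g of the same complex had one of the smallest. Without WT mouse 2 C8b was at 0.13, below F11 (0.26), Mbl1 (0.20), Kng1 (0.16), C2 (0.15) and Vtn (0.15). Without KO mouse 3 C8b was at 0.21, below F11 (0.42). C6, which binds C5b to start the assembly, was at 7.70, 8.36 and 8.74 in KO mice 1 to 3, against 7.83, 6.88 and 7.97 in WT mice 1 to 3. The KO mean was higher by 0.71 ± 0.32, with a 95% interval of -0.03 to 1.45 (limma adjusted p = 0.562). KO mouse 1 lay below WT mice 1 and 3, so the groups overlapped, and the difference was 0.37 without WT mouse 2, 0.47 without KO mouse 3 and 0.13 without both.

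C8a, the alpha subunit of C8, was at 9.19, 9.31 and 9.75 in KO mice 1 to 3, against 9.004, 8.44 and 8.99 in WT mice 1 to 3, with every KO value above every WT value. The difference was 0.60 ± 0.19, a ratio of 1.52 with a 95% interval of 1.12 to 2.05, and it did not pass (limma adjusted p = 0.401, exact permutation p = 0.1). Without WT mouse 2 it was 0.42 (limma adjusted p = 0.513), without KO mouse 3 0.44 (0.700) and without both 0.25 (0.754). Over all alternatives its adjusted p ran from 0.319 to 0.754.

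C8b, the beta subunit and the next protein-coding gene to C8a, was at 8.85, 9.28 and 9.75 in KO mice 1 to 3, against 9.04, 8.24 and 9.30 in WT mice 1 to 3, with the groups overlapping. C9, which polymerises into the wall of the pore, was at 8.69, 8.98 and 9.69 in KO mice 1 to 3, against 8.96, 8.36 and 9.16 in WT mice 1 to 3, also overlapping. Their differences were 0.43 ± 0.29 and 0.30 ± 0.27. Without WT mouse 2 these were 0.13 and 0.06, without KO mouse 3 0.21 and 0.01, and without both -0.10 and -0.22. C8g, the lipocalin-type gamma subunit that is not related in structure to the alpha and beta chains, was at 8.50, 8.69 and 8.68 in KO mice 1 to 3, against 8.52, 8.65 and 8.66 in WT mice 1 to 3, a difference of 0.0092 ± 0.10 with a 95% interval of -0.22 to 0.23. The range over 6 mice was 0.19 for C8g against 1.30 to 1.86 for C6, C8a, C8b and C9, where 3.53% of all genes tested had a range over 1.

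In each of C6, C8a, C8b and C9 the lowest value was that of WT mouse 2 and the highest that of KO mouse 3. Mbl1, Masp1, Cfb and C4bp had the same lowest and highest mouse, which made 8 of the 12 complement genes, against 4 of the 19 coagulation genes (F7, F13b, Plg and Vtn). Among all genes tested 3.67% had this pair of extremes. The pattern was picked after the values were seen and so has no test. Since these were the highest KO and the lowest WT values, leaving both mice out lowers the differences of such genes by construction.

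In mice the terminal components are known to be more abundant in males, so genes with a male-biased level in mouse liver are given beside them. Of 11 such genes listed, 9 were tested, and 7 of these 9 also had WT mouse 2 lowest and KO mouse 3 highest. Over the 10 measured, the mean deviation from the WT mean was -0.13, 0.61 and 1.06 in KO mice 1 to 3, against 0.25, -0.84 and 0.59 in WT mice 1 to 3. For C6, C8a, C8b and C9 together the same quantity was 0.09, 0.47 and 0.97 in KO mice and 0.19, -0.53 and 0.34 in WT mice. Both sets thus put the mice in the same order, WT 2, KO 1, WT 1, WT 3, KO 2 and KO 3. C6, C8a, C8b and C9 were grouped after their values were seen and share their lowest and highest mouse, so the matching ends do not test a link. In the male-biased set KO mouse 2 and WT mouse 3 lay close, at 0.61 and 0.59. The part of the variation in male-biased genes in the terminal complement result was not tested.

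Slco1a1, a male-biased organic anion transporter, was at 7.61, 8.66 and 8.97 in KO mice 1 to 3, against 7.94, 4.31 and 8.30 in WT mice 1 to 3, and Serpina1e, a male-biased serpin, at 9.46, 10.23 and 10.33 in KO mice 1 to 3, against 9.68, 8.86 and 9.65 in WT mice 1 to 3. Elovl3, a male-biased fatty acid elongase, was at 8.56, 8.07 and 8.96 in KO mice 1 to 3, against 8.07, 7.33 and 8.09 in WT mice 1 to 3. C4a, the mouse gene of sex-limited protein, was likewise lowest in WT mouse 2, at 4.90, 6.75 and 6.27 in KO mice 1 to 3, against 5.38, 4.02 and 6.38 in WT mice 1 to 3, but highest in KO mouse 2. C4a and C4b are near-identical, so probes may not separate them fully, and C4b was at 9.55, 9.58 and 10.09 in KO mice 1 to 3, against 9.53, 9.76 and 9.76 in WT mice 1 to 3. The mean deviation of the 11 female-biased genes measured was 0.11, -0.53 and -0.51 in KO mice and -0.02, 0.46 and -0.44 in WT mice. None of the 9 male-biased and 6 female-biased genes tested passed the threshold. In each list 1 gene, Elovl3 (difference 0.70 ± 0.26) and Acot3 (-1.13 ± 0.39), had an unadjusted limma p under 0.05. Such a p was found for 6.16% of all genes higher in KO and 2.98% lower. Acot3, an acyl-CoA thioesterase, was at 5.16, 4.85 and 4.13 in KO mice 1 to 3, against 6.03, 6.55 and 4.95 in WT mice 1 to 3. Cyp2a4, a cytochrome P450, was at 6.83, 6.45 and 6.21 in KO mice 1 to 3, against 6.57, 7.36 and 6.91 in WT mice 1 to 3 and differed by -0.45 ± 0.21. Fmo2, a flavin monooxygenase, was at 5.58, 5.38 and 4.77 in KO mice 1 to 3, against 5.64, 6.16 and 5.30 in WT mice 1 to 3 and differed by -0.45 ± 0.25. All 3 were lowest in KO mouse 3 and highest in WT mouse 2, and their groups overlapped. They were named for the smallest p of the female-biased list, and the other genes tested did not share this pair. Cyp2b9 and Cyp2b13 were lowest in WT mouse 3 and highest in WT mouse 2. Cyp17a1 was lowest in KO mouse 2 and highest in WT mouse 1.

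**Figure D4:**
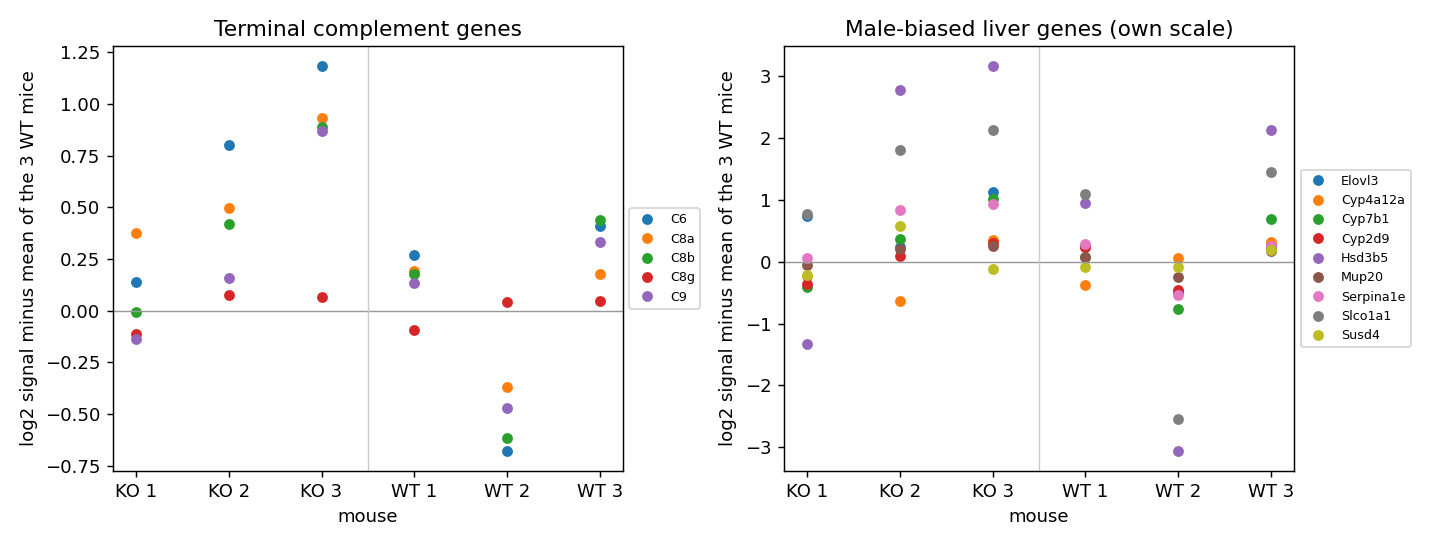
Left, C6, C8a, C8b, C8g and C9, and right, 9 male-biased liver genes, as log2 signal minus the mean of the 3 WT mice for each mouse, 1 point per gene and mouse; the vertical scales differ. C6, C8a, C8b and C9 and most male-biased genes are lowest in WT mouse 2 and highest in KO mouse 3, and C8g stays near 0.

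Other genes of the same pathways gave no call either. Of 28 further coagulation and fibrinolysis genes listed, 19 were tested and none passed; 1 was higher and 1 lower at an unadjusted p under 0.05, where 6.16% of all genes were higher and 2.98% lower. KO and WT values did not overlap for 4 of the 19, all higher in KO, against 9.63% of all genes, and the median difference was 0.05. Ggcx, the carboxylase that modifies the vitamin K dependent factors, was at 7.69, 7.56 and 7.71 in KO mice 1 to 3, against 7.39, 7.49 and 7.33 in WT mice 1 to 3, without overlap, and differed by 0.25 ± 0.09 (limma adjusted p = 0.472). Thbd, which encodes thrombomodulin, was at 2.90, 3.23 and 2.89 in KO mice 1 to 3, against 3.51, 3.42 and 3.10 in WT mice 1 to 3, near the filter, and differed by -0.34 ± 0.14 (adjusted p = 0.528 in limma). F2r, a thrombin receptor, was at 6.31, 6.24 and 6.56 in KO mice 1 to 3, against 5.97, 6.18 and 6.20 in WT mice 1 to 3, again without overlap.

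Of 33 further complement genes, 24 were tested and none passed; 2 were higher and none lower at an unadjusted p under 0.05, near the 6.16% of all genes that were higher. Values did not overlap for 2 of the 24, both higher in KO, near the 9.63% of all genes, and the median difference was 0.08. Colec10, a collectin of the lectin route, was at 4.92, 4.82 and 5.17 in KO mice 1 to 3, against 4.55, 4.64 and 4.63 in WT mice 1 to 3, and every KO mouse was above every WT mouse (difference 0.36 ± 0.11, limma adjusted p = 0.389). C1rl, a C1r-like protease, was at 8.50, 8.55 and 8.43 in KO mice 1 to 3, against 8.19, 8.30 and 8.26 in WT mice 1 to 3, also without overlap, and differed by 0.24 ± 0.09 (limma adjusted p = 0.465). Cfhr2, a factor H related gene, was at 6.63, 6.39 and 7.03 in KO mice 1 to 3, against 6.20, 6.17 and 6.68 in WT mice 1 to 3 and overlapped. Hc, the mouse gene of C5, from which the terminal complex starts, was at 9.75, 9.81 and 10.18 in KO mice 1 to 3, against 9.77, 9.70 and 9.76 in WT mice 1 to 3 and differed by 0.17 ± 0.12, with KO mouse 3 highest and WT mouse 2 lowest.

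Signals that feed into these genes were read in the same livers. Hnf4a and Cebpa, transcription factors of hepatocyte genes, differed by 0.0032 ± 0.09 and 0.04 ± 0.10. Onecut1, another liver transcription factor, was at 5.18, 5.99 and 5.91 in KO mice 1 to 3, against 6.31, 7.21 and 6.68 in WT mice 1 to 3, so all KO mice were below all WT mice (difference -1.04 ± 0.26, limma adjusted p = 0.336). Cebpd, an inflammatory C/EBP factor, was at 2.81, 2.85 and 2.80 in KO mice 1 to 3, against 3.01, 3.02 and 3.55 in WT mice 1 to 3 and differed by -0.37 ± 0.15, near the filter. Nr1h4, the bile acid receptor FXR, had the next lowest p, was at 8.15, 8.33 and 8.20 in KO mice 1 to 3, against 8.20, 8.16 and 8.06 in WT mice 1 to 3, overlapping, and differed by 0.08 ± 0.10. Of 11 liver transcription factors tested none passed. Groups did not overlap for 2 of the 11, Onecut1 and Cebpd, both lower in KO, against 5.16% of all genes. The same 2 had an unadjusted limma p under 0.05, where 2.98% of all genes were lower at such a p.

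Il6ra, the IL-6 receptor chain, was at 7.67, 7.49 and 7.58 in KO mice 1 to 3, against 6.71, 7.02 and 7.33 in WT mice 1 to 3, and Il1r1, the IL-1 receptor, at 6.42, 6.42 and 7.05 in KO mice 1 to 3, against 5.63, 5.45 and 6.08 in WT mice 1 to 3. In both, all KO mice lay above all WT mice, with differences of 0.56 ± 0.15 and 0.91 ± 0.21 (limma adjusted p = 0.347 and 0.301). Il1b, a ligand of that receptor, was at 3.72, 3.002 and 3.67 in KO mice 1 to 3, against 4.74, 4.62 and 3.77 in WT mice 1 to 3, lower in every KO mouse than in any WT mouse (difference -0.91 ± 0.27, limma adjusted p = 0.373). None of the 9 signalling genes tested passed. Groups did not overlap for 4 genes higher in KO (Il6ra, Il1r1, Il1rap and Jak1) and 1 lower (Il1b), against 9.63% and 5.16% of all genes. They overlapped for Il6st, Stat3, Socs3 and Osmr, with differences of 0.07, -0.04, -0.15 and -0.18. Il6 itself lay below the filter. At an unadjusted limma p under 0.05, 3 of the 9 were higher and 1 lower, against 6.16% and 2.98% of all genes. Of 19 acute phase genes tested none passed, with a median difference of 0.05; Orm3, Mt1 and Saa3 had the smallest p. Orm3, an orosomucoid, was at 4.66, 4.11 and 4.496 in KO mice 1 to 3, against 4.67, 5.38 and 5.28 in WT mice 1 to 3, and differed by -0.69 ± 0.21. Mt1, a metallothionein, was at 5.55, 5.11 and 5.94 in KO mice 1 to 3, against 6.35, 6.93 and 5.96 in WT mice 1 to 3, and differed by -0.88 ± 0.27. For Orm3 and Mt1 all KO values were below all WT values, as for 5.16% of all genes. Saa3, a serum amyloid A, was at 4.27, 4.82 and 5.66 in KO mice 1 to 3, against 4.43, 4.34 and 4.13 in WT mice 1 to 3, overlapping, with KO mouse 3 highest, and differed by 0.61 ± 0.29.

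Markers of other liver and blood cells were set beside these values. Summed Kupffer signal, over 8 of 8 markers tested, ran from 8.50 to 9.11 in KO and from 8.39 to 9.18 in WT mice on the log2 scale, highest in WT mouse 1 and next in KO mouse 3. Sinusoidal endothelial markers, 8 of 8 tested, ran from 8.95 to 9.10 in KO and 8.92 to 9.19 in WT, and stellate markers, 8 of 8 tested, from 8.79 to 9.05 in KO and 8.75 to 9.14 in WT. Platelet and megakaryocyte markers, 4 of 6 measured above the filter, ran from 5.61 to 5.97 in KO and 5.52 to 5.69 in WT, with Pf4 below the filter. All 8 neutrophil and monocyte markers lay below the filter. Fat cell markers, 4 of 7 measured above the filter and Adipoq below it, ran from 6.58 to 7.52 in KO and 6.90 to 7.71 in WT. Bile duct markers, 2 of 5 measured above the filter, ran from 6.41 to 6.64 in KO and 6.08 to 6.40 in WT. Pancreatic acinar markers, 3 of 4 measured above the filter, ran from 5.45 to 5.69 in KO and 5.59 to 6.78 in WT, highest in WT mouse 1. In none of these lists did a marker pass the threshold. At an unadjusted limma p under 0.05 were 1 of the 2 bile duct markers tested (higher) and 1 of the 3 acinar markers (lower). Of all genes, 6.16% were higher and 2.98% lower at that p. Their part in the complement and coagulation values was not tested.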

How the data were processed

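The deposited table gives the authors' log2 value for each of 41345 probe sets in each of 6 mice, and nothing in the labels or the file says how arrays were summarised or normalized. That values are log2 was inferred: column maxima of 12.1 to 12.2 lie above 11.1, the natural log of the top reading of a 16-bit scanner. All columns matched a mouse by name. Gene symbols came from the platform annotation, brought up to date by Entrez number with the GRCm38.p6 gene table; 23521 probe sets had 1 symbol and 1814 had several.

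KO and WT were compared with limma 3.58.1 in R 4.3.3 (two-sided, no covariate, Benjamini-Hochberg over the 11090 genes with a mean log2 value of at least 2.99). Values after ± are limma's SE unless called SD, and 95% intervals are unadjusted. Single genes also had an exact two-sided permutation test. The median SE over all genes was 0.11, and the number of mice limits precision. On data simulated for this comparison with 11090 genes, limma called 49.8% of genes changed by a fold of 1.5, 88.6% at 2 and 99.5% at 4. The simulated sets held many more changed genes than the 4 called here, which eases the Benjamini-Hochberg threshold. These shares thus need not hold for the real data. Gpr146 itself, at a KO over WT ratio of 0.361, did not pass (limma adjusted p = 0.0702). Alternatives were other signal filters, averaging the probe sets of 1 gene, quantile or median scaling, trend and robust options, array weights, a pseudocount of 16, a replicate block and leaving out mice.

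The members and lists were chosen with earlier results of these data known. By the rule for named genes, values per mouse were given for members with an unadjusted p under 0.05, without overlap, with the 2 smallest or 2 largest differences of a list, or in a described role group; of other pathway lists and the sex-biased lists, the 3 genes of smallest p. Hc, C4a, C4b, Hnf4a and Cebpa were added after their values were seen. Cell type markers were summed as linear signal. Protein sequences were not used here.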

Additional observations from a re-analysis of the deposited data

How the results depend on the processing

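No coagulation or complement factor passed the threshold in any of the 16 alternatives, where the lowest limma adjusted p of a member was 0.319 (C8a with the replicate block). F11 and C8a had an unadjusted p under 0.05 with every setting except the removal of both KO mouse 3 and WT mouse 2, a setting chosen after seeing the data that leaves 2 against 2 mice and drops the lowest WT value of both genes. Of the 31 members tested, 20 kept the sign of their difference in all 16 alternatives and 11 did not, among them C2, C8b and C9. Of the 11, quantile and median scaling turned the sign of C8g alone, to -0.03 and -0.005. For F7, F13b, C8b, C9 and Masp1 the sign changed only without both KO mouse 3 and WT mouse 2. These genes were lowest in WT mouse 2 and highest in KO mouse 3, so that removal lowers their differences by construction. The count of all genes called was 4, against 0 with the strictest signal filter, 1 with the pseudocount of 16 and 1 with the replicate block. It ran from 1 to 51 with a mouse left out, 51 without WT mouse 3, and was 1 without KO mouse 3 and WT mouse 2. The median difference of coagulation genes ran from 0.009 to 0.076 with a mouse left out, lowest without KO mouse 3, and was 0.015 without KO mouse 3 and WT mouse 2. For complement genes it ran from 0.035 to 0.223 with a mouse left out and was 0.012 without both. Where these values moved, the cause was not tested. Deviations of same-numbered KO and WT mice correlated at 0.055, -0.187 and 0.147, and those of other pairs at -0.268 to 0.241. With 3 mice per group these values cannot show whether the numbers pair the mice. In the replicate block fit, 1 coagulation and 3 complement genes had an unadjusted limma p under 0.05, as did 9.48% of all genes.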
